A study of Mus musculus with 6 samples.

Results

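The genes described are 10 mouse genes of cholesterol efflux and lipid handling in macrophages: Nr1h3, Nr1h2, Abca1, Abcg1, Apoe, Lpl, Lipa, Npc1, Npc2 and Plin2. They were chosen by name, with earlier results of these data known, and each matched exactly 1 of the 51912 genes listed for every library. All 10 passed the filter on low counts that left 12668 genes for testing. RNA was sequenced from cells of the aorta-gonad-mesonephros (AGM), the region around the embryonic dorsal aorta, of MacGreen embryos at day E10.5. In MacGreen mice the Csf1r promoter drives EGFP, so that macrophages and some of their precursors are green. Green cells that carried the mannose receptor (CD206) on their surface form the CD206pos group, and green cells without it form the CD206neg group. Each group has 3 libraries, each of which pooled 3 to 5 AGM, so that the value of a single embryo cannot be read. The series design names 3 independent litters, and the titles number the AGM of each library from 1 to 3. Libraries of both groups with the same number are read here as 1 litter, which no label states outright, and all values within litters and with the litter as a block rest on that reading. All cells carried the reporter, tissue was dissociated with collagenase for 45 min at 37 C before sorting, and the labels name no further treatment.

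Macrophages take up cholesterol with lipoproteins and dying cells, and cannot break the sterol ring down. Cholesteryl esters are cleaved in the lysosome, free cholesterol leaves it through the Niemann-Pick C proteins, and the surplus is stored as ester in lipid droplets or exported by ABC transporters to apolipoproteins. Oxysterols, which form from surplus cholesterol, activate the liver X receptors (LXR), and these switch on Abca1, Abcg1, Apoe and Lpl. Microglia and other tissue macrophages are known for high Apoe levels.

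The libraries held between 16730846 and 18214283 reads in genes, so that 3 reads stand for 0.16 to 0.18 CPM (read counts relative to library size, with libraries scaled to each other by the TMM method). Mrc1, which encodes the sorted antigen, averaged 1585 ± 181 CPM in CD206pos and 93.9 ± 36.8 CPM in CD206neg (SD, n = 3 each). Of 12 macrophage markers, 12 had reads, and their summed level was 7303 to 10319 CPM in CD206pos and 5521 to 7200 CPM in CD206neg. Of these 12 genes, 5 (Adgre1, Aif1, Cd68, Fcer1g and Fcgr1) were higher in CD206pos in the test described below, none was lower, and their median log2 fold change was 0.68. Markers of progenitors and granulocytes (11 of 11 with reads) summed to 38.9 to 120 CPM in CD206pos and 2730 to 3483 CPM in CD206neg, and 5 of them, Kit, Ctsg, Ms4a3, S100a8 and S100a9, were at 0 reads in all CD206pos libraries. In bulk RNA, fewer cells of a type and less RNA per cell cannot be told apart, and the part of these other cells in the results below was not tested.

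Of the 10 genes, 2 rose in CD206pos and none fell. Abca1, the transporter that loads cholesterol onto apolipoproteins, was 4.83-fold higher, and Plin2, the coat protein of lipid droplets, was 1.74-fold higher. In the same test (edgeR's quasi-likelihood test, Benjamini-Hochberg adjusted p under 0.05) 4.87% of the 12668 tested genes passed, 2.97% being higher and 1.9% lower in CD206pos. At an unadjusted p under 0.05, 5 of the 10 genes were higher and none was lower, against 9.53% of tested genes higher and 8.05% lower. DESeq2 called 2 of the 10 genes higher and limma-voom 3, against 5.21% and 4.03% of the genes each tested. With the litter, as read from the titles, as a block, 4 of the 10 genes passed, Apoe and Npc2 being the additions, against 3.44% of tested genes higher in that fit. The fitted log2 fold change was above 0 for 10 of 10 genes, as for 49.6% of tested genes. That of Nr1h2 was below 0 with library totals as the only scaling, and that of Abcg1 with the litter as a block. The median log2 fold change was 0.61 over the 10 genes and -0.004 over all tested genes. All 3 CD206pos libraries lay above all 3 CD206neg libraries for 5 of them (Abca1, Apoe, Lipa, Npc2 and Plin2), against 12.8% of tested genes. CD206pos was higher in each of the 3 litters for 7 of them (also Lpl and Npc1), against 21.7% of tested genes. Since the 10 genes were chosen with earlier results of these data known, these shares describe them and do not test them as a set.

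**Figure D1:**
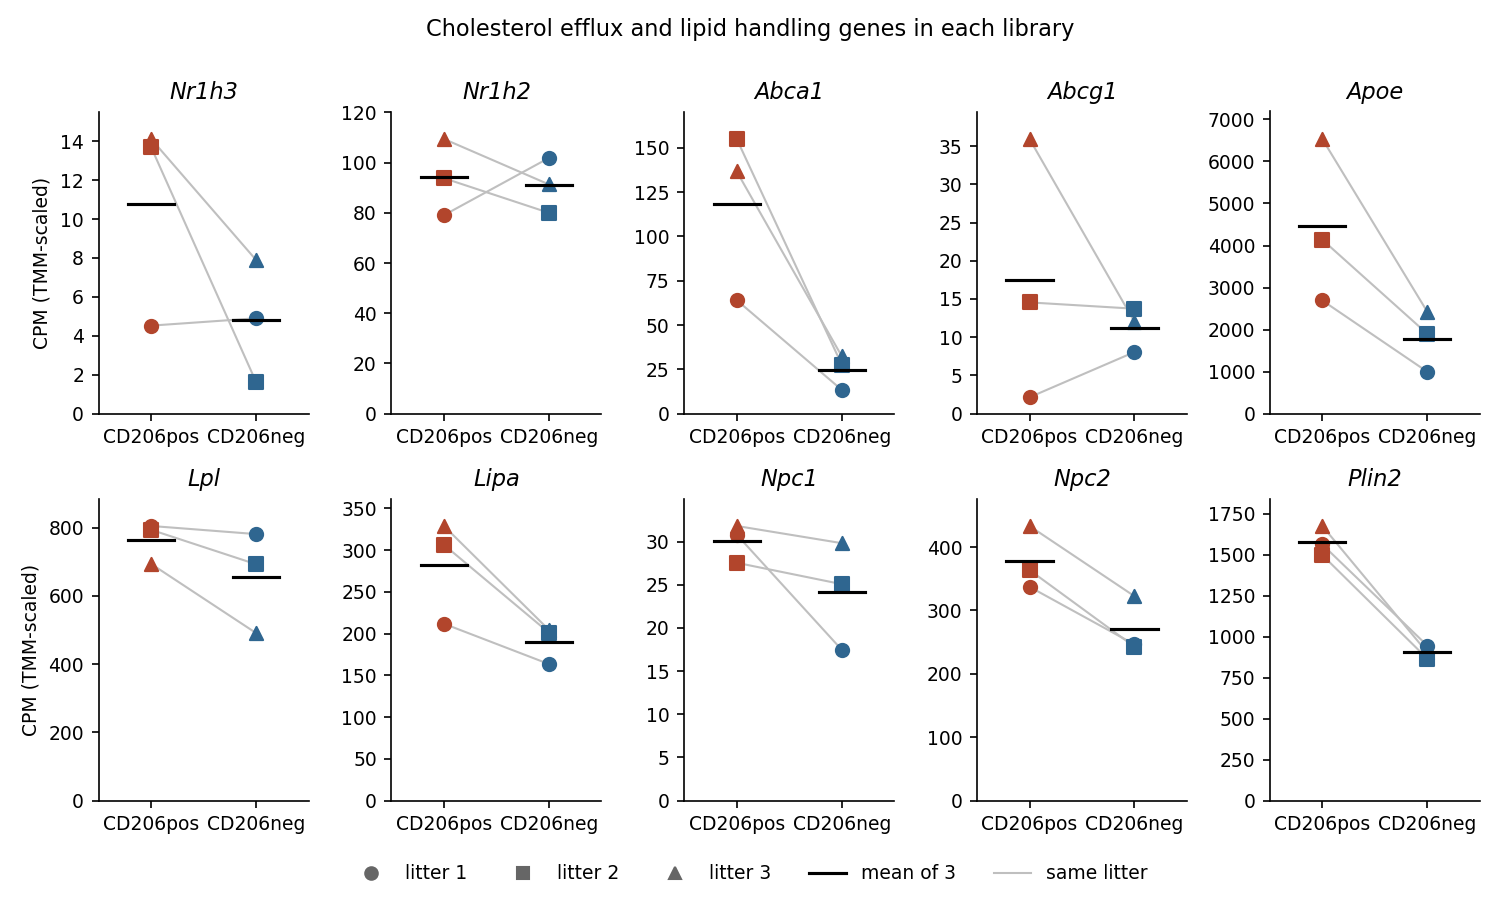
Level of each of the 10 genes in CPM (linear axes that start at 0) in the CD206pos (left) and CD206neg (right) library of each litter; symbols mark litters, grey lines join libraries of a litter, and black bars are means of 3. For Abca1, Apoe, Lipa, Npc2 and Plin2 every CD206pos point lies above every CD206neg point, while Abcg1 and Nr1h3 are spread widely within CD206pos.

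Per length of exon, the 10 genes covered a wide range, and their order was led by the same genes in both groups. Apoe averaged 2084 CPM per kb in CD206pos and 830 CPM per kb in CD206neg, and Plin2 averaged 450 CPM per kb in CD206pos and 258 CPM per kb in CD206neg. In both groups the ranges of Apoe, Plin2 and the next gene, Lipa, did not overlap. Lipa, Lpl and Npc2 followed at means of 69.5 to 95.1 CPM per kb in CD206pos and 49.8 to 63.9 CPM per kb in CD206neg, and neighbours in that order overlapped. Nr1h2 stood below them and apart from its neighbours, at 28.0 CPM per kb in CD206pos and 27.1 CPM per kb in CD206neg. The lowest 4 were Abca1, Abcg1, Nr1h3 and Npc1 in CD206pos, at means of 2.80 to 11.4 CPM per kb, and Abcg1, Abca1, Npc1 and Nr1h3 in CD206neg, at 1.91 to 2.77 CPM per kb. Neighbours among these 4 overlapped in both groups. The places of Apoe, Plin2 and Nr1h2 (1, 2 and 6) were the same when levels were divided by the length of the principal transcript, but Lpl then stood above Npc2 and Lipa in both groups, so the order among these 3 depends on the length used. The order of the lowest 4 depended on it too. With the principal transcript Npc1 stood above Nr1h3 in CD206pos (5.76 against 5.51 CPM per kb), which was not so per exon length. In CD206neg it then stood above Abca1 (4.62 against 2.39 CPM per kb), also not so per exon length. The principal transcript of Abcg1 in GENCODE M21 has 5832 bases, more than the 4066 bases of exon over which its reads were counted. Its place by that length (10 in both groups) can therefore not be read. Together the 10 genes took 0.558%, 0.723% and 0.964% of the reads in the CD206pos libraries of litters 1, 2 and 3, against 0.331%, 0.418% and 0.474% in the CD206neg libraries.

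The LXR genes encode the sensors of the pathway. Nr1h3 (ENSMUSG00000002108.10, chromosome 2) encodes LXR alpha, and was at 4.52, 13.7 and 14.1 CPM in the CD206pos libraries of litters 1, 2 and 3, against 4.90, 1.62 and 7.89 CPM in the CD206neg libraries. The groups overlapped, since the CD206pos library of litter 1 lay within the CD206neg range. The log2 fold change was 1.16 ± 0.66 (SE), with an adjusted p of 0.428 and a 95% interval of the fold from 0.793 to 6.33. The lowest Nr1h3 value rests on 28 reads. Nr1h2 (ENSMUSG00000060601.13, chromosome 7) encodes LXR beta, the form found in most tissues, and was at 79.0, 93.8 and 109 CPM in CD206pos, against 102, 80.0 and 91.3 CPM in CD206neg. These ranges overlapped widely. The Nr1h2 log2 fold change was 0.05 ± 0.18 (SE, adjusted p = 0.943), and the interval of the fold ran from 0.775 to 1.38. Per kb, LXR alpha was at 0.0768, 0.195 and 0.172 of the LXR beta level in the CD206pos libraries of litters 1, 2 and 3, against 0.0645, 0.0275 and 0.116 in the CD206neg libraries. LXR beta transcripts were therefore the more abundant in all 6 libraries. The log2 ratio averaged -2.87 ± 0.73 in CD206pos and -4.08 ± 1.04 in CD206neg (SD, n = 3 each), and an exact two-sided permutation test gave p = 0.2, where 0.1 is the smallest p that 3 against 3 libraries allow.

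Of the efflux transporters, Abca1 passed the test and Abcg1 did not, which by itself shows no difference between them. Abca1 (ENSMUSG00000015243.4, GRCm38 chromosome 4, 53030787 to 53159895, minus strand) exports cholesterol and phospholipid to lipid-poor apolipoproteins. It was at 64.1, 155 and 137 CPM in the CD206pos libraries of litters 1, 2 and 3, against 13.5, 27.7 and 32.5 CPM in the CD206neg libraries. The lowest CD206pos value, that of litter 1, was still above the highest CD206neg value. The log2 fold change was 2.27 ± 0.41 (SE, adjusted p = 0.0178, interval of the fold 2.53 to 9.22), and within litters the fold was 4.76, 5.59 and 4.21. The call held in 10 of 10 fits with another scaling, filter or tool. It was lost without CD206pos replicate 2 (adjusted p = 0.101), CD206pos replicate 3 (0.0673), CD206neg replicate 1 (0.0559) or CD206neg replicate 2 (0.0956), and without both libraries of litter 2 (0.262) or litter 3 (0.112), with log2 fold changes of 1.98 to 2.38 in these 6 fits.

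Abcg1 (ENSMUSG00000024030.6, chromosome 17) encodes the transporter that passes cholesterol on to mature high-density lipoprotein. It was at 2.14, 14.6 and 35.9 CPM in the CD206pos libraries of litters 1, 2 and 3, against 8.06, 13.7 and 12.01 CPM in the CD206neg libraries. The CD206pos libraries thus held both the lowest and the highest value of all 6, and the lowest rests on 35 reads. The log2 fold change was 0.64 ± 0.77 (SE, adjusted p = 0.767), with an interval of the fold from 0.461 to 5.27. It was -0.01 with the litter as a block and -0.45 without CD206pos replicate 3, so no direction can be given. Within each library, the ratio of Abca1 to Abcg1 per kb was 11.6, 4.17 and 1.49 in CD206pos, against 0.654, 0.792 and 1.06 in CD206neg. All 3 CD206pos libraries had a higher ratio than any CD206neg library. The log2 ratio averaged 2.06 ± 1.48 in CD206pos and -0.29 ± 0.35 in CD206neg (SD, n = 3 each; exact two-sided permutation p = 0.1, the smallest this design allows). The difference within litters was 4.15, 2.40 and 0.49 on the log2 scale, so its size varied widely between litters.

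**Figure D2:**
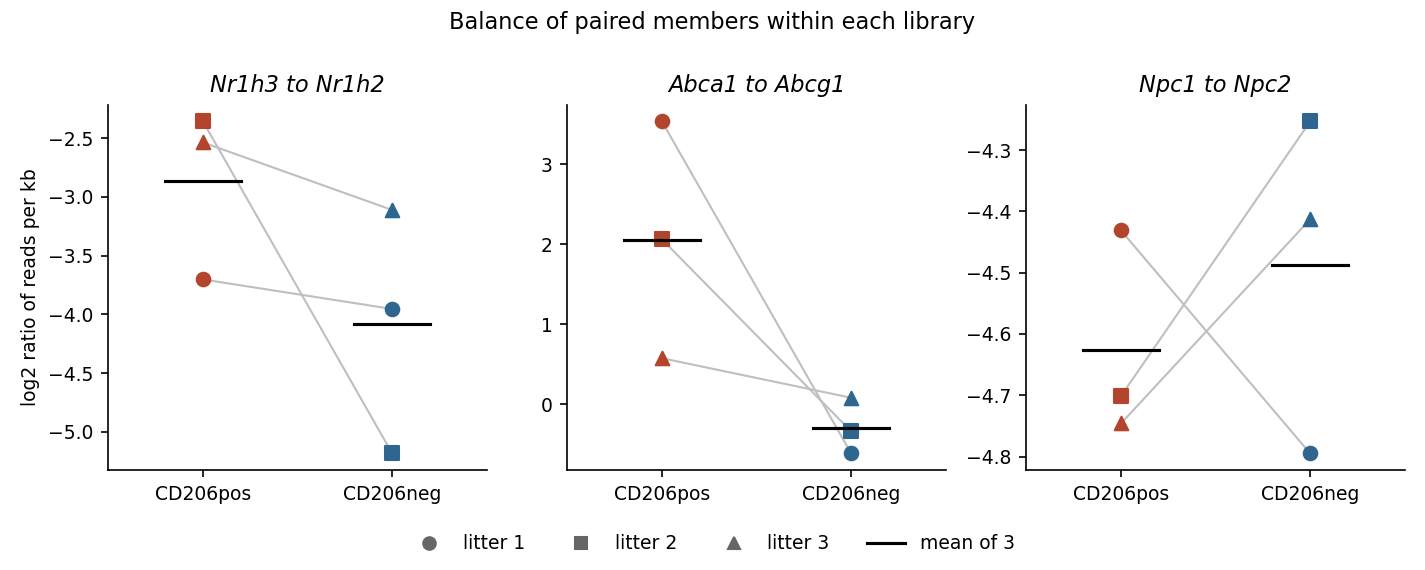
Log2 ratio of reads per kb of exon within each library for Nr1h3 to Nr1h2, Abca1 to Abcg1 and Npc1 to Npc2, with CD206pos at left and CD206neg at right, symbols for litters, grey lines joining libraries of a litter and black bars for means of 3. The Abca1 to Abcg1 ratio is higher in every CD206pos library, between 0.58 and 3.53, than in any CD206neg library, between -0.61 and 0.08; the other ratios overlap.

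The stretches before the annotated starts of Abca1 and Plin2 are shown because these are the genes that passed the test. They are the 250 bases before the start on the minus strand (RefSeq, GRCm38.p6), chr4:53159896-53160145 for Abca1 and chr4:86670060-86670309 for Plin2, written 5′ to 3′. Capitals mark matches to the motifs named below.
Abca1: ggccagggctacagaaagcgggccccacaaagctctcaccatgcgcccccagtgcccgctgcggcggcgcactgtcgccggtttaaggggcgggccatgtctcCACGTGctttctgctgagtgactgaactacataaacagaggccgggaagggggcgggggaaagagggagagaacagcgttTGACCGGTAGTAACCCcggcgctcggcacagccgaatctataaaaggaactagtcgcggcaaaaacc
Plin2: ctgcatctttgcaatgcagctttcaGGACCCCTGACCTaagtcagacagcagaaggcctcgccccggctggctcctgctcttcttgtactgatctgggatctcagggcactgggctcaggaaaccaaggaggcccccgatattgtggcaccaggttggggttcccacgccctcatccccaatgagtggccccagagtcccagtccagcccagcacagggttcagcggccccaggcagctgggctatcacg
LXR binds DR4 elements, direct repeats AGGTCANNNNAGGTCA, and the PPAR receptors bind DR1 elements, AGGTCANAGGTCA. Both were searched on both strands, DR4 with up to 3 and DR1 with up to 2 mismatches at the 12 fixed letters, beside the E-box CACGTG without mismatch. The Abca1 stretch held a DR4 match with 3 mismatches at positions -67 to -52 from the start and an E-box at -147 to -142, which do not overlap. The Plin2 stretch held a DR1 match with 2 mismatches at -225 to -213. Of all 32851 such windows, 18.5% held a DR4 match, 3.24% a DR1 match and 6.02% an E-box. In the windows of Apoe, Nr1h3, Nr1h2, Lipa and Npc2, the other members among the 7 with a sequence, none of the 3 motifs was found. Abcg1, Lpl and Npc1 are the members without a sequence. A match describes the letters and is no evidence of binding.

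Apoe (ENSMUSG00000002985.16, GRCm38 chromosome 7, 19696109 to 19699188, minus strand) encodes apolipoprotein E, which macrophages secrete as a carrier for exported cholesterol. It was at 2693, 4138 and 6534 CPM in the CD206pos libraries of litters 1, 2 and 3, against 997, 1900 and 2425 CPM in the CD206neg libraries. In both groups litter 1 was lowest and litter 3 highest, and the lowest CD206pos library lay just above the highest CD206neg library. Apoe alone made up 0.260%, 0.404% and 0.630% of the reads in CD206pos, against 0.101%, 0.196% and 0.254% in CD206neg. Without the block its log2 fold change of 1.33 ± 0.38 (SE) did not pass (adjusted p = 0.0971, interval of the fold 1.39 to 4.55). With the litter as a block it did (log2 fold change 1.33, adjusted p = 0.00168), since the fold within litters was 2.70, 2.18 and 2.69. It also passed with the stricter filter (adjusted p = 0.0476) and limma-voom (0.0344) and not with DESeq2 (0.0785). Over its 19 alternatives the adjusted p lay between 0.00168 and 0.458. Markers of hepatocytes and visceral endoderm, which also express Apoe, summed to 18.7 to 34.5 CPM in CD206pos and 8.69 to 11.1 CPM in CD206neg, most of it from Trf. Of these 8 markers 6 had reads, and the defining hepatocyte gene Alb and the lipoprotein gene Apob had 0 reads in all 6 libraries. In all, 3 of the 8 were at 0 reads in every CD206pos library and 4 in every CD206neg library. The 2 markers that were tested had a median log2 fold change of 1.12, and neither passed. The part of such cells in the Apoe values was not tested.

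**Figure D3:**
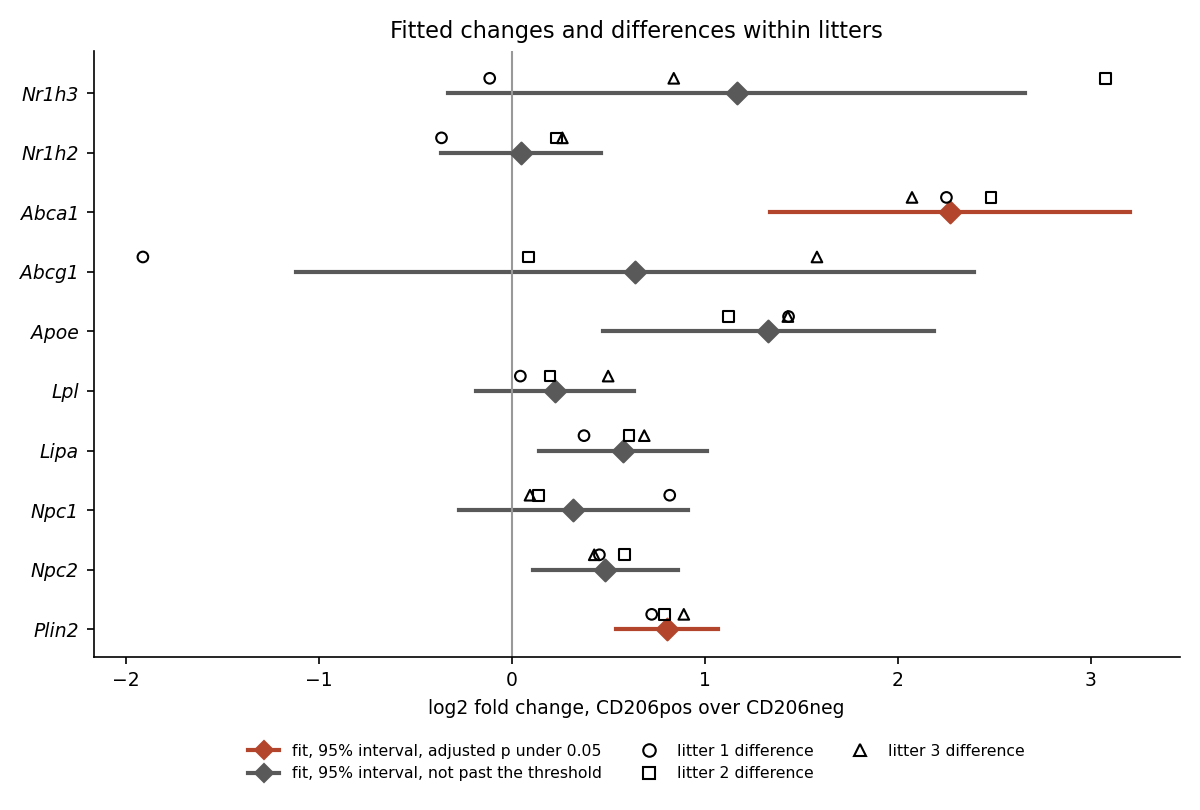
Log2 fold change of CD206pos over CD206neg for each of the 10 genes (diamonds, with 95% intervals as lines; red where the adjusted p is under 0.05), with the differences within the 3 litters as open symbols above. The litter differences of Abca1 (2.07 to 2.48), Apoe (1.12 to 1.43) and Plin2 (0.72 to 0.89) lie close together, while those of Abcg1 run from -1.91 to 1.58.

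Lpl and Lipa, which release fatty acids and cholesterol from lipoproteins outside the cell and in the lysosome, did not pass the test. Lpl (ENSMUSG00000015568.16, chromosome 8), the secreted lipase that splits the triglycerides of lipoproteins, was at 805, 794 and 694 CPM in the CD206pos libraries of litters 1, 2 and 3, against 781, 693 and 491 CPM in the CD206neg libraries. The groups overlapped, and litter 3 was lowest in both. The Lpl log2 fold change was 0.22 ± 0.18 (SE, adjusted p = 0.619), with an interval of the fold from 0.878 to 1.55. Lipa (ENSMUSG00000024781.15, chromosome 19), the lysosomal acid lipase that cleaves cholesteryl esters, was at 212, 306 and 329 CPM in CD206pos, against 164, 201 and 205 CPM in CD206neg. The groups did not overlap, but the lowest CD206pos value stood only just above the CD206neg range. The Lipa log2 fold change was 0.57 ± 0.19 (SE, adjusted p = 0.153, 0.0503 with the litter as a block), and it passed without CD206pos replicate 1 (adjusted p = 0.0433).

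The Niemann-Pick C genes act in sequence, as Npc2 carries free cholesterol inside the lysosome and hands it to Npc1 in the membrane. Npc2 (ENSMUSG00000021242.9, chromosome 12) was at 337, 364 and 433 CPM in the CD206pos libraries of litters 1, 2 and 3, against 246, 243 and 322 CPM in the CD206neg libraries. Every CD206pos value was above every CD206neg value, though the lowest CD206pos and the highest CD206neg library stood close together. The Npc2 log2 fold change of 0.48 ± 0.16 (SE) had an adjusted p of 0.164, and of 0.0479 with the litter as a block. Npc1 (ENSMUSG00000024413.13, chromosome 18) was at 30.8, 27.6 and 31.8 CPM in CD206pos, against 17.5, 25.1 and 29.8 CPM in CD206neg, with overlapping groups. Its log2 fold change was 0.32 ± 0.26 (SE, adjusted p = 0.627, interval of the fold 0.825 to 1.88). Of the exon bases of Npc1, 2.63% are shared with other genes, and reads there were not counted. Per kb, the level of Npc1 was 0.0464, 0.0384 and 0.0373 of that of Npc2 in CD206pos, against 0.0360, 0.0524 and 0.0469 in CD206neg, so Npc2 transcripts were in large excess in all 6 libraries. The log2 ratios differed by -0.14 between the groups (exact two-sided permutation p = 0.6).

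Plin2 (ENSMUSG00000028494.12, GRCm38 chromosome 4, 86648386 to 86670060, minus strand) encodes perilipin 2, which coats lipid droplets and guards them from lipases. It was at 1563, 1498 and 1676 CPM in the CD206pos libraries of litters 1, 2 and 3, against 946, 867 and 904 CPM in the CD206neg libraries. Its spread within groups was small, and the groups lay far apart. The log2 fold change was 0.80 ± 0.12 (SE, adjusted p = 0.0071, interval of the fold 1.45 to 2.10), with folds of 1.65, 1.73 and 1.85 within litters. The call held in 10 of 10 fits with another scaling, filter or tool and in 5 of 6 fits without 1 library, the exception being CD206neg replicate 2 (adjusted p = 0.0566). It was lost without litter 2 (0.238) and litter 3 (0.0915).

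Libraries of litter 1 were often the lowest of their group. The CD206pos library of litter 1 was the lowest of 3 for 7 of the 10 genes (70%), against 38.0% of all tested genes, and the CD206neg library of litter 1 for 5 of 10 (50%), against 35.9%. The same CD206pos library was lowest for 7 of 11 tested further LXR target genes (63.6%), and the CD206neg library of litter 1 for 10 of 11 (90.9%). Both libraries of litter 1 were also the lowest of their group for the summed macrophage markers. These were at 7303 CPM beside 9430 and 10319 CPM in litters 2 and 3 in CD206pos. In CD206neg they were at 5521 CPM beside 6697 and 7200 CPM. The part of this in the values of the 10 genes and the LXR target genes was not tested.

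Further genes of lipid handling were examined in 9 lists, the 10 genes left out, of which 117 of 154 were tested and 15 passed. Lists are described by their counts beside the 2.97% higher and 1.9% lower of all tested genes. For DESeq2, limma-voom and the litter block, shares over all tested genes were taken for the higher direction only (5.21%, 4.03% and 3.44%). Counts of lower genes in these fits therefore stand without such a share. Of 11 tested LXR target genes none passed in edgeR's test, while DESeq2 gave 1 call (Mylip) and limma-voom 0 (median log2 fold change 0.17). Before adjustment 3 had a p under 0.05, against 9.53% of tested genes higher and 8.05% lower. Of these, Mylip and Mlxipl were higher in CD206pos. Fasn was lower (log2 fold change -0.43), with every CD206pos library below every CD206neg library, as for 11.8% of tested genes. Scd2, a fatty acid desaturase gene and the most abundant of the 11, was at 158 ± 8.07 CPM in CD206pos and 141 ± 71.6 CPM in CD206neg (adjusted p = 0.888). Singled out after their values were seen, Mylip, which marks the LDL receptor for degradation, averaged 38.3 ± 21.1 CPM in CD206pos and 14.7 ± 5.13 CPM in CD206neg (adjusted p = 0.167, and 0.041 with DESeq2), and Apoc2, the cofactor of Lpl, had 0 reads in all 6 libraries. Of 10 tested LXR partner, co-regulator and PPAR genes none passed in edgeR's test (median -0.02). Without adjustment 2 had a p under 0.05, against 9.53% of tested genes higher and 8.05% lower. DESeq2 gave 2 calls (Ncoa3 and Rxra) and limma-voom 0. The most abundant, the coactivator gene Ncoa3, was at 262 ± 17.2 CPM in CD206pos and 174 ± 34.7 CPM in CD206neg (adjusted p = 0.105, and 0.0293 with DESeq2). Rxra, which encodes the partner of LXR on DNA and was also singled out after its values were seen, was at 6.11, 29.1 and 25.5 CPM in CD206pos, against 1.85, 5.27 and 8.40 CPM in CD206neg (adjusted p = 0.173, and 0.0316 with the litter as a block).

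Other ABC transporters and apolipoproteins were mostly below the filter, and of 6 tested 2 rose (median 0.002). Abca9, a transporter of the ABCA subfamily, rose 5.63-fold, at 110 ± 26.2 CPM in CD206pos and 19.6 ± 10.2 CPM in CD206neg (adjusted p = 0.00756). The Abca9 adjusted p was 0.0552 when CD206neg replicate 2 was left out, 0.0532 without litter 1 and 0.186 without litter 2. Abcg3, of the ABCG subfamily, rose 2.48-fold to 76.8 ± 13.1 CPM in CD206pos, against 31.0 ± 10.4 CPM in CD206neg (adjusted p = 0.0317). Among the fits without 1 library the Abcg3 call held only without CD206neg replicate 3 (adjusted p = 0.0251). Of 14 tested uptake receptors 3 rose and 1 fell (median 0.29). The scavenger receptor genes Msr1 and Stab1 rose. Msr1 was at 108 ± 11.7 CPM in CD206pos and 25.6 ± 7.57 CPM in CD206neg (4.22-fold, adjusted p = 0.00267), and Stab1 at 1026 ± 218 CPM in CD206pos and 187 ± 68.4 CPM in CD206neg (5.47-fold, adjusted p = 0.00333). Both calls held without any 1 library, and both were lost without litter 2 (adjusted p = 0.0754 for Msr1 and 0.108 for Stab1). The other gene that rose, named after its values were seen, was Cd36, a receptor for oxidised lipoproteins and fatty acids, at 106 ± 49.2 CPM in CD206pos and 24.1 ± 7.03 CPM in CD206neg (adjusted p = 0.0152). The Cd36 call held without CD206pos replicate 1 (adjusted p = 0.0108) or CD206pos replicate 3 (0.0494) and was lost without any of the other 4 libraries (0.0607 to 0.0784). Sorl1, a sorting receptor that binds lipoproteins, was at 4.65, 16.5 and 11.0 CPM in CD206pos, against 32.0, 80.9 and 107 CPM in CD206neg (log2 fold change -2.77 ± 0.55, SE, adjusted p = 0.0259). Among the fits without 1 library, it passed only without CD206neg replicate 1 (adjusted p = 0.0246).

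Of 19 tested genes of lysosomal lipid breakdown 3 rose and 16 did not pass (median 0.50). Of these 19, 11 had every CD206pos library above every CD206neg library, against 12.8% of tested genes. Before adjustment 10 had a p under 0.05, all of them higher in CD206pos, against 9.53% of tested genes. With the litter as a block 5 passed, with limma-voom 5 and with DESeq2 7, none of them lower, so the count depends on the test. Lamp1, the most abundant lysosomal membrane protein, rose 1.67-fold to 1330 ± 61.5 CPM in CD206pos, against 796 ± 15.1 CPM in CD206neg (adjusted p = 0.00856, lost without CD206pos replicate 2 or CD206neg replicate 2, at 0.0553 and 0.0614). Hexa, a subunit of the ganglioside-cleaving hexosaminidase, rose 1.72-fold (adjusted p = 0.0419), and among the fits without 1 library passed only without CD206pos replicate 1 (adjusted p = 0.0215). The other gene that rose, Neu1, a lysosomal sialidase also named after its values were seen, was at 147 ± 19.3 CPM in CD206pos and 86.2 ± 13.9 CPM in CD206neg (adjusted p = 0.0481), and among the fits without 1 library passed only without CD206pos replicate 1 (0.0448). With upper-quartile scaling and with library totals Hexa did not pass (0.056 and 0.0697), and Neu1 passed in 6 of 10 fits with another scaling, filter or tool. Lpl had few measured partners: of 3 tested none passed in edgeR's test, and DESeq2 and limma-voom gave 0 calls (median 0.03). Before adjustment 1 of the 3 had a p under 0.05, against 9.53% of tested genes higher and 8.05% lower. Sel1l, which serves the folding of Lpl, was at 277 ± 78.8 CPM in CD206pos and 176 ± 42.4 CPM in CD206neg (adjusted p = 0.227, and 0.0256 with the litter as a block). Of 16 tested genes of sterol transport and oxysterol synthesis 2 rose and 2 fell (median 0.34), and with the litter as a block 2 rose and 1 fell. The oxysterol-binding protein genes Osbpl9 and Osbpl11 rose 2.31-fold and 2.66-fold (adjusted p = 0.00333 and 0.029). The Osbpl9 call held without any 1 library, and that of Osbpl11 only without CD206pos replicate 1 (adjusted p = 0.0341). Without litter 2 (adjusted p = 0.103) or litter 3 (0.0681) the Osbpl9 call was lost. Tspo, a protein of the outer mitochondrial membrane, fell to 289 ± 33.4 CPM in CD206pos, against 510 ± 88.9 CPM in CD206neg (adjusted p = 0.0268, and 0.0418 without CD206pos replicate 3, the only library whose removal kept the call). Osbpl5 had 0 reads in CD206pos, against 3.00 ± 2.46 CPM in CD206neg. With 3 reads over the group as the floor, this is at least 55.3-fold lower (adjusted p = 0.0426). The Osbpl5 call was lost without any 1 library (adjusted p up to 0.191) and with the litter as a block (0.0947).

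Storage of lipid in droplets gave 1 change beside Plin2 in edgeR's test. Of 19 tested genes none rose, 1 fell and 18 did not pass (median -0.08). Before adjustment 5 had a p under 0.05 in either direction, against 9.53% of tested genes higher and 8.05% lower. DESeq2 called 1 higher and 2 lower, and limma-voom 1 higher and 1 lower. With the litter as a block none rose and 1 gene other than Dgat2 fell. Plin3, named after its values were seen, had every CD206pos library above every CD206neg library (adjusted p = 0.0709, 0.0139 with DESeq2, 0.0442 with limma-voom). Dgat2, which makes triglycerides, was at 6.24, 4.07 and 9.02 CPM in CD206pos, against 24.8, 29.4 and 17.3 CPM in CD206neg (log2 fold change -1.89 ± 0.39, SE, adjusted p = 0.0295, and 0.0599 with the litter as a block). Every CD206pos library lay below every CD206neg library for Dgat2, as for 11.8% of tested genes. Among the fits without 1 library Dgat2 passed only without CD206pos replicate 3 (adjusted p = 0.0356). Of 19 genes of SREBP2 control and sterol synthesis, all tested, 1 rose and 18 did not pass (median 0.30), while 2 rose with the litter as a block. The gene that rose, Hmgcs1, encodes an early enzyme of the pathway and was at 183 ± 21.9 CPM in CD206pos and 85.3 ± 7.36 CPM in CD206neg (2.14-fold, adjusted p = 0.00682), a call that held without any 1 library but not without any 1 litter (adjusted p between 0.0519 and 0.175).

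**Figure D4:**
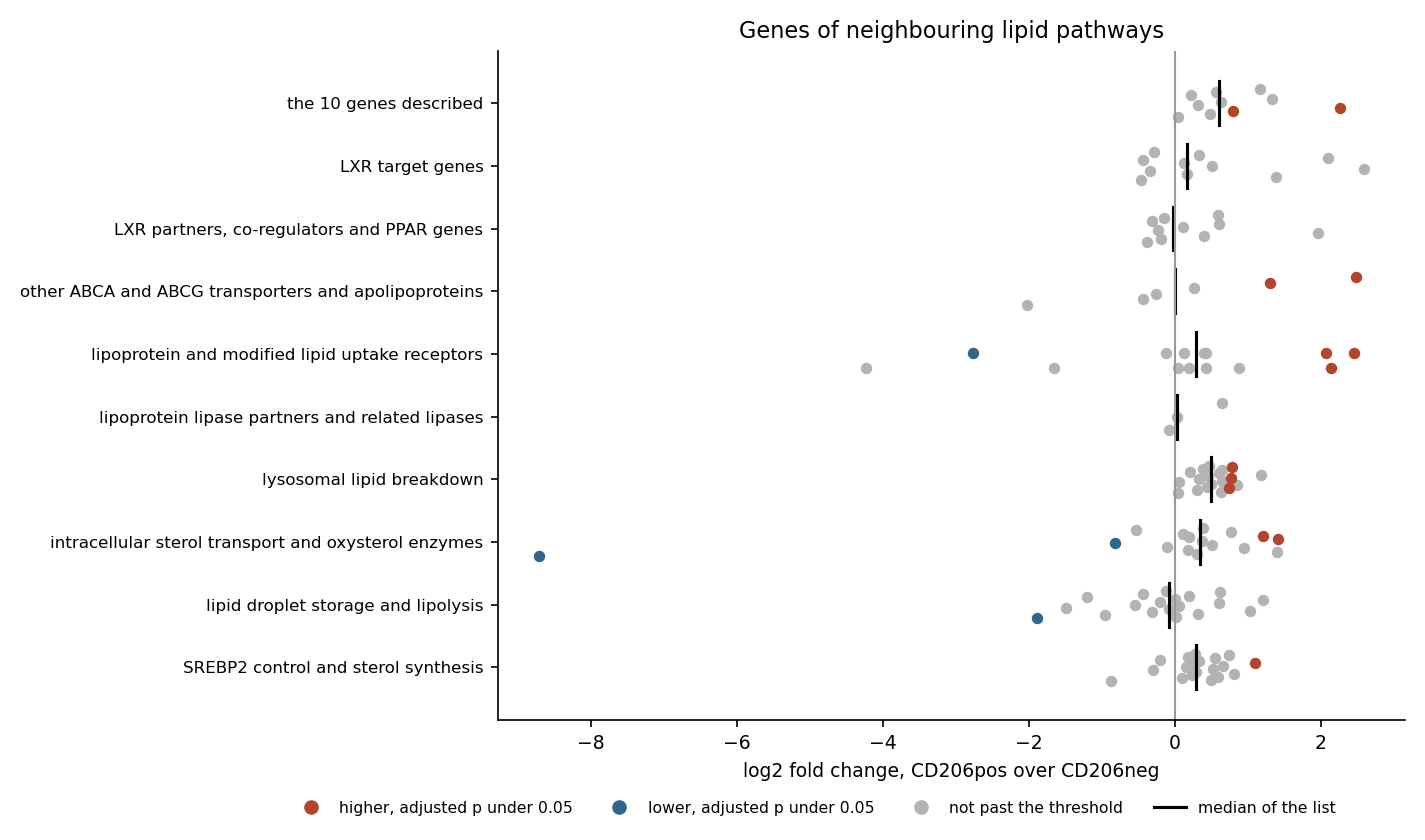
Log2 fold change of CD206pos over CD206neg for the tested genes of each list and for the 10 genes described (points; red higher and blue lower at an adjusted p under 0.05, grey otherwise), with the median of each list as a black line. The median of the 10 genes is 0.61, that of lysosomal lipid breakdown 0.50 and that of lipid droplet genes -0.08; the point at far left is Osbpl5, whose fitted value has no fixed size because CD206pos had 0 reads.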

How the data were processed

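The authors deposited raw whole-number read counts per gene, made with featureCounts 1.5.2 over exons of GENCODE M14 without options for strand, read pairs or overlapping genes, per the file headers. The submitters' processing notes name FastQC, STAR 2.3 and Subread with the builds mm10 and GRCm38.p5. Symbols came from GENCODE M21 (51633 of 51912 identifiers). Libraries of a group were not copies of each other (chi-square per degree of freedom 36.9 to 90.4).

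The test was edgeR 4.0.16, run in R 4.3.3 (filterByExpr, TMM, robust quasi-likelihood F test of CD206pos against CD206neg, without a litter block). The same steps were also run on counts simulated from the means and spread of this fit, as a check of the code only. A fold is the ratio of mean CPM, and SE is the log2 fold change divided by the square root of F. Intervals are 95% and carry the spread between libraries, while the floor of 3 reads covers counting error only. Per-kb levels use the exon length in the deposited files, and ratios within a library add 0.5 reads to each gene. Reads of a gene and of an antisense partner cannot be told apart.

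Same-numbered libraries were read as 1 litter, from the numbers in the titles and the 3 litters of the series design. No label says that the number marks a litter. Deviations from group means correlated at 0.09, 0.04 and 0.18 within litters 1, 2 and 3 over 12668 genes, and the 2 libraries without Xist reads are those of litter 2.

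The members, lists and tests were chosen with earlier results of these data known. Named are the 10 genes, Mrc1, in each list up to 2 called genes a direction, by smallest p, and where a list had none its tested gene with the highest mean CPM. Alternatives were the litter block, 3 other scalings, a looser filter (1 read) and a stricter one (5 CPM in 3 libraries), DESeq2 1.42.0, limma-voom (limma 3.58.1), no robust estimation, leaving out globin, mitochondrial and ribosomal protein genes, and leaving out each library and litter. Division by principal transcript length, taken from GENCODE M21 and not from the M14 exons that were counted, was added after the data were seen.

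Of the remaining marker lists, all tested megakaryocyte markers but 1 were lower in CD206pos (2 of 3; 0.0 to 3.30 CPM summed in CD206pos, 74.8 to 107 CPM in CD206neg). Endothelial markers summed to 9.62 to 26.4 CPM in CD206pos and 76.9 to 156 CPM in CD206neg. Erythroid markers summed to 2.38 to 4.69 CPM in CD206pos and 2.95 to 4.23 CPM in CD206neg. Mesenchymal markers summed to 8.56, 1.83 and 60.8 CPM in the CD206pos libraries of litters 1, 2 and 3, against 3.16, 8.98 and 74.1 CPM in CD206neg. Litter 3 was thus far the highest in both groups, and the part of this in the values of the 10 genes was not tested.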

Additional observations from a re-analysis of the deposited data

How the results depend on the processing

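The count of called genes among the 10 was 2, and 3 with the stricter filter, with limma-voom and without CD206pos replicate 1; with the litter as replicate block it was 4. It lay between 0 and 3 when 1 library or 1 litter was left out, at 0 without CD206neg replicate 2, without litter 2 and without litter 3. Over all tested genes the count was 617, with 1210 for DESeq2, 190 to 561 without 1 library, and 307, 3 and 153 without litters 1, 2 and 3. Over the 9 lists it was 15, with 29 for DESeq2, 4 to 11 without 1 library, and 7, 0 and 3 without litters 1, 2 and 3. Fewer libraries also mean less power, and the cause of the lower counts was not tested.

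Fitted log2 fold changes turned sign for Abcg1 (0.64; -0.0144 with the block, -0.45 without CD206pos replicate 3, -0.40 without litter 3; -0.45 to 1.16 over the fits without 1 library or litter), for Nr1h2 (0.05; -0.0399 with library totals, -0.10 without CD206pos replicate 3, -0.04 without CD206neg replicate 2, -0.07 and -0.10 without litters 2 and 3; -0.10 to 0.247 over such fits) and for Scd2 (0.17; -0.20 without CD206neg replicate 1, -0.22 without litter 1; -0.22 to 0.447 over such fits), none of which passed the test in any fit. Of the other values for the 10 genes, 168 kept direction and side of the threshold, 9 lost a call and 5 gained one. The block changed no call among the 10 genes other than those of Apoe and Npc2. The 3 ratios kept their sign in every fit run without 1 library. At these depths Abcg1 and Nr1h3, with 28 to 621 reads, have fold intervals of 0.461 to 5.27 and 0.793 to 6.33.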
